A study of Mus musculus with 8 samples.

Results

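White adipose tissue of newborn C57BL/6 mice was compared with that of pups at postnatal day 2, a step that covers the first days of suckling. Total RNA had been measured on Illumina MouseRef-8 BeadChips, arrays of short probes on beads, at 8 stages from e15.5 in the embryo to P12 after birth. Each stage was 1 pooled sample on 1 array, pooled from 3 or more embryos by 1 label and from 4 by another. All pools came from the C57BL/6 strain, with no treatment or altered allele in the labels, and the fat depot is not given. The step therefore sets 1 P0 array against 1 P2 array, with no replicate and no p-value, and a difference cannot be told apart from the spread between pools, litters or dissections.

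The members are features that reached 7.5 on the authors' log2 intensity scale on the P0 or the P2 array and differed by 1 log2 (2-fold) or more. A feature is 1 probe per named gene, or an unnamed probe. Of 18312 features on the array, 6967 reached 7.5 on either array, and 211 of these differed by 1 log2 or more. Below, a gene that "rose" or "fell" moved by at least that much between these 2 arrays. At P2, 63 features were higher (0.904% of those kept) and 148 were lower (2.12%). Among the falls, 81 were in a skeletal muscle or an epidermal gene list, and these are described apart. Outside those lists, 61 of 6831 features rose (0.893%) and 67 fell (0.981%).

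At birth a mouse passes from glucose supplied through the placenta to fat-rich milk, and its white adipocytes begin to fill with triglyceride. An adipocyte takes up fatty acids that lipoprotein lipase frees from circulating lipoproteins, stores them in a droplet coated with perilipins, and releases glycerol and fatty acids again in fasting. It also secretes hormones, among them leptin, which reports the size of the fat store to the brain, and adiponectin. Leptin transcription in the adipocyte is known to involve the factor C/EBPα, cholesterol synthesis genes are known targets of SREBP factors, and late cell cycle genes are known to carry a promoter element called CHR beside CCAAT boxes.

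The promoters of 6 members on which the results turn are shown here, to give the sequence context of the 3 largest rises, of a rise from the mitotic genes, of a rise from the cholesterol genes and of the largest fall outside the muscle and epidermal lists. Each runs from 250 bases before to 50 after the first start that RefSeq lists for the gene in GRCm38.p6, 5′ to 3′ on the gene's strand. Capitals mark any match, on either strand, to 6 short motifs. TTGCGCAA is a palindrome that C/EBP factors bind, and TTTGAA is the core of the CHR element. The CCAAT box is bound by the factor NF-Y. TATAAA is the core of the TATA box, found in a minority of promoters. TCACNCCAC resembles a sterol regulatory element, and GGGCGG is the GC box bound by Sp1. A match on the other strand appears as the reverse complement, so that CCAAT may read ATTGG.
Sncg (chr14:34374620-34374919, minus strand): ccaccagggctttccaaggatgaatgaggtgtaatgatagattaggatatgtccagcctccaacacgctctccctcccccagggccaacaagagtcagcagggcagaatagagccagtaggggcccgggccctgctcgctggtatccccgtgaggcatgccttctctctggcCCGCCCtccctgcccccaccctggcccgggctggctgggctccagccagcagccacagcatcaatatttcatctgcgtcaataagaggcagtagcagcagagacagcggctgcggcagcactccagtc
Nnat (chr2:157559828-157560127, plus strand): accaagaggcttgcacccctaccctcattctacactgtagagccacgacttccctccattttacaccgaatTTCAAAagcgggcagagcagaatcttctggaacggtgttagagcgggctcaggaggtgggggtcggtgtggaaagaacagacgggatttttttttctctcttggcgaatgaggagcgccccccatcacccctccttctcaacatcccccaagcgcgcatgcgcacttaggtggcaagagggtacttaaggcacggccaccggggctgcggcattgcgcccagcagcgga
Lep (chr6:29059971-29060270, plus strand): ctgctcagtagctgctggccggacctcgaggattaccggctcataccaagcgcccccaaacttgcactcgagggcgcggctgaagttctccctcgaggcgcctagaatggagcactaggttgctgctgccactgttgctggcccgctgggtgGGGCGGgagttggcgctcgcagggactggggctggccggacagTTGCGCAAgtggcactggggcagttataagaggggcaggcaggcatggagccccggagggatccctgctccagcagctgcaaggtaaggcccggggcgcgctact
Prc1 (chr7:80294201-80294500, plus strand): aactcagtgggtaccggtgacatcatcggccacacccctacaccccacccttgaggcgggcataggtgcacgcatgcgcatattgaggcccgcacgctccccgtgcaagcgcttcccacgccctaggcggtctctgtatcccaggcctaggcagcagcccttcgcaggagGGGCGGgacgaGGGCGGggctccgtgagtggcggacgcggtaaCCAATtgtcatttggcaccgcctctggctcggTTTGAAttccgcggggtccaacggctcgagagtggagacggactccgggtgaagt
Hmgcs1 (chr13:119690101-119690400, plus strand): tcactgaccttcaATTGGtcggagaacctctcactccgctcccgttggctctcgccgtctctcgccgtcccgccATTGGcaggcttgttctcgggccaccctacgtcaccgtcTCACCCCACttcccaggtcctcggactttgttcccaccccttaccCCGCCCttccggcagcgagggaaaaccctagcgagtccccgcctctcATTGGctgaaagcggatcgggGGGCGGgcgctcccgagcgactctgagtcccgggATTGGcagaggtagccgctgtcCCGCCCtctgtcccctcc
Cyp2e1 (chr7:140763569-140763868, plus strand): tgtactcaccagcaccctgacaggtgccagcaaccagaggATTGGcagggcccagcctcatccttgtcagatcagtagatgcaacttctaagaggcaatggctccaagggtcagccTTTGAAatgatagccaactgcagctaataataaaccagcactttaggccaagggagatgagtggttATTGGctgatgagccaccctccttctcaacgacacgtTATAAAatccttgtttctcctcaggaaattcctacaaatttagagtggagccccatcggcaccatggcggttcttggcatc

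The C/EBP palindrome TTGCGCAA lay in the Lep window, and in 50 of 27025 promoters of the same length (0.185%). In the Hmgcs1 window, 4 CCAAT or ATTGG matches and 1 match to TCACNCCAC were found, and 1.22% of all promoters held the latter. The Prc1 window held both TTTGAA and CCAAT, which 18.1% and 37.9% of all promoters held. Of the 6 windows, Cyp2e1 alone had a TATAAA match, against 14.2% of all promoters. TTGCGCAA and TCACNCCAC were picked after the Lep and Hmgcs1 windows had been read, so their presence there is a description of these letters and not a result.

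The 3 largest rises were in Sncg, Nnat and Lep, which adipocytes express, though Sncg was also in the pericyte and nerve lists. Which cells gave these rises was not tested. Sncg encodes γ-synuclein, a small protein of adipocytes and peripheral neurons. Its level was 7.72, 8.28, 8.86 and 8.75 on the 4 embryonic arrays, in order of stage, then 8.20 at P0, 12.89 at P2, 13.998 at P5, with 13.45 at P12. The 5 arrays up to P0 were lower than the 3 later ones. This describes the gene only, since it was chosen on its P0 and P2 values. The P2 level was 25.9-fold above that at P0, and a second Sncg probe rose by 2.51 log2. Nnat encodes neuronatin, a small membrane proteolipid of the endoplasmic reticulum expressed from the paternal allele. It stood at 7.42, 7.35, 7.49 and 7.12 on the embryonic arrays, and at 8.01 at P0, 11.85 at P2, 12.07 at P5, with 11.57 at P12. Nnat was thus near the low end of the scale before P2 and 14.3-fold higher at P2 than at P0, and its second probe rose by 1.30.

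Lep, the leptin gene, had levels of 6.98, 8.07, 9.78 and 8.67 on the embryonic arrays. It was at 9.62 at P0, 12.71 at P2, 13.74 at P5, with 13.29 at P12, a rise of 3.09 log2 (8.50-fold) over the step. Here too the 5 arrays up to P0 lay below the 3 from P2, again as a description of a chosen gene. Adipoq, which encodes adiponectin, was at 13.40 at P0 and 13.52 at P2, and had been at 13.50 at e18.5. Pparg, the nuclear receptor that drives fat cell formation, was at 11.28 and 11.93. Plin1, the main droplet coat of white adipocytes, was at 9.58 and 9.47, and Lpl, which encodes lipoprotein lipase, at 14.71 and 14.85. None of these 4 genes passed 1 log2. Of the defining adipocyte markers, Adipoq, Plin1, Pparg and Cidec (11.72 and 11.91) thus stayed within 1 log2, while Lep rose.

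**Figure D1:**
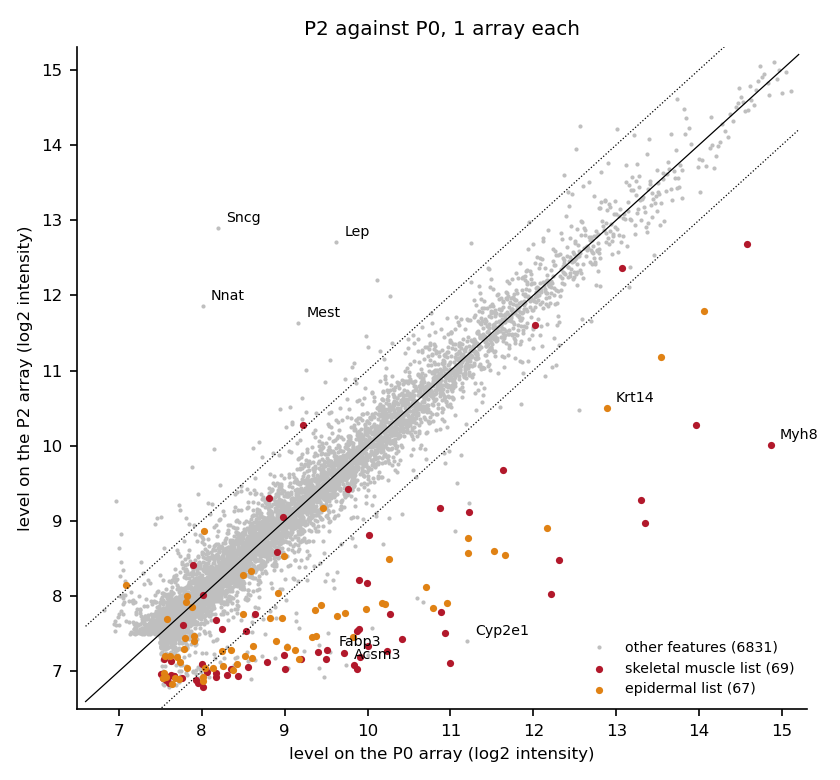
Level of each feature kept on the P0 array (x axis) and the P2 array (y axis), both in log2 intensity, with 1 array per stage; the solid line marks equal levels and the dotted lines a difference of 1 log2. Sncg, Nnat, Lep and Mest stand above the upper line, and most features far below the lower one belong to the skeletal muscle list (red) or the epidermal list (orange).

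Further genes of lipid storage and hormone response rose by less. Plin4, a perilipin of small lipid droplets, went from 12.51 to 13.94 (2.69-fold). Aqp7, the channel through which adipocytes release glycerol, went from 9.84 to 10.88, while its 3 other probes differed by 0.90, 0.48 and 0.31, short of 1 log2. Cav2 and Ehd2 belong to caveolae, the membrane pits that crowd the adipocyte surface. Cav2 went from 10.01 to 11.31 and Ehd2 from 7.90 to 8.95, while Cav1, the main caveolin, went from 12.47 to 13.35, which did not reach 1 log2. Ffar2, a receptor for short-chain fatty acids, went from 9.98 to 11.46 (2.79-fold). Sucnr1, the succinate receptor, went from 7.81 to 9.04. Gpt, an alanine aminotransferase, went from 9.38 to 10.43 but had been at 10.84 at e18.5, so its P2 level did not exceed the level before birth.

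Ghr, Cish and Hsd11b1, of growth hormone and glucocorticoid signalling, were among the rises as well. Ghr, the growth hormone receptor, had embryonic levels of 10.29, 10.55, 11.05 and 10.92, was at 11.25 at P0, and stood at 12.70, 12.94 and 12.65 at P2, P5 and P12. A second Ghr probe differed by 0.91. Cish, which encodes an inhibitor induced by cytokine and growth hormone signalling, went from 9.26 to 10.45, with 10.14 at e18.5 and 9.41 at P5. Hsd11b1, the enzyme that regenerates active glucocorticoid, went from 9.07 to 10.52 (2.73-fold), and its 2 other probes rose by 1.38 and 1.25. It was the only rise among 25 genes of the glucocorticoid and fasting list, in which Acot1, Lcn2 and Mt1 fell and the median was -0.11 log2. Of 16 measured genes of the IGF and growth hormone list, Ghr and Cish rose (12.5%, against 0.904% of all features kept) and none fell. The median difference was 0.34 log2, against 0.0086 over all features kept. This list averaged 10.44 at e18.5, 10.11 at P0 and 10.46 at P2, so P2 was near the level before birth. Igf2, the main fetal growth factor of the list, was at 14.85 and 14.66.

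Of the 42 measured genes of the adipocyte lipid storage list, 5 rose (Sncg, Nnat, Plin4, Cav2 and Aqp7) and 2 fell (Cidea and Slc27a1), with a median of 0.14 log2. These are shares of 11.9% and 4.76%, against 0.904% and 2.12% of all features kept. Among 32 adipogenic regulators none passed 1 log2, and the median was 0.12. In the list of adipokines and secreted proteins, 5 of 19 rose (26.3%) and 4 fell (21.1%). This list thus held members moving both ways, with Lep and Mest at 1 end and Serpina12, Agt, Lcn2 and Apoc1 at the other. Probes for Fabp4, Cd36, Fasn and Pck1 did not reach 7.5 on either array, and Cfd was not analysed here.

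Synthesis of cholesterol and fatty acids was represented by 3 called genes. Insig1, which holds the SREBP complex in the endoplasmic reticulum and is itself an SREBP target, was at 7.33, 7.28, 8.37 and 9.52 on the embryonic arrays, 7.51 at P0, 9.05 at P2, 8.88 at P5, with 10.17 at P12. The P0 level was low between higher neighbours, and 2 other Insig1 probes differed by 1.41 and 0.47. Hmgcs1, the enzyme that makes HMG-CoA for sterol synthesis and whose promoter is shown above, went from 13.00 to 14.20 (2.30-fold). Its lowest level was 12.18, at e16.5, and its highest 14.20, at P2. Fads3, a member of the fatty acid desaturase family, went from 8.22 to 9.48 and was at 9.91 at P5. All 16 measured genes of the cholesterol list were above 0 in the difference, against 51.4% of all features kept. The median of the list was 0.25 log2. Only Insig1 and Hmgcs1 passed 1 log2 (12.5%, against 0.904% of all features kept). The cholesterol list averaged 9.15 at e18.5, 8.63 at P0 and 9.04 at P2. In the fatty acid synthesis list 18 of 22 were above 0 (81.8%), with a median of 0.37 and Fads3 as the only call (4.55%). That list averaged 10.31 at e18.5, 9.51 at P0 and 9.83 at P2, so P2 stayed below e18.5. Srebf1, the SREBP factor of this list, went from 7.94 to 8.73, a difference of 0.79. CCAAT occurred in 12 of the 13 cholesterol list promoters found (92.3%), against 39.6% of the promoters of all genes kept, and TCACNCCAC in 1 of 13.

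Mest was the fourth largest rise and followed another course. It encodes an imprinted hydrolase-like protein, known as a marker of fat cell enlargement in mice. Mest was at 11.30, 11.50, 11.03 and 10.19 on the embryonic arrays, then at 9.16 at P0, 11.63 at P2, 11.00 at P5, with 8.21 at P12. It was therefore as high at P2 as in the early embryo and low at P0 and P12, and its 2 other probes rose by 2.42 and 2.08. Of 14 imprinted growth genes, Nnat and Mest rose (14.3%, against 0.904% of all features kept) and none fell. Dlk1, an imprinted inhibitor of fat cell formation, went from 13.45 to 12.53, which did not reach 1 log2, and on to 10.18 and 7.32 at P5 and P12.

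Matrix and cell surface genes included Col15a1, a collagen of basement membrane zones, which went from 9.49 to 10.85 and had been at 10.71 at e18.5. Emp1, an epithelial membrane protein, went from 12.56 to 14.25 (3.23-fold), its highest level in the series. Lgals1, a galactoside-binding lectin, went from 12.37 to 13.60 and Ccdc80, a secreted matrix protein, from 10.15 to 11.26. Of 12 basement membrane genes, 11 were above 0 (91.7%, against 51.4% of all features kept). None passed 1 log2, and the median was 0.49. The largest difference among them was that of Nid2, which encodes nidogen 2, at 9.75 and 10.62. Col4a1, a type IV collagen chain, was at 13.12 and 13.73. Col15a1 was the only one of 40 collagen and fibrillar matrix genes to pass (2.5%, against 0.904% of all features kept). The median of that list was 0.11.

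**Figure D2:**
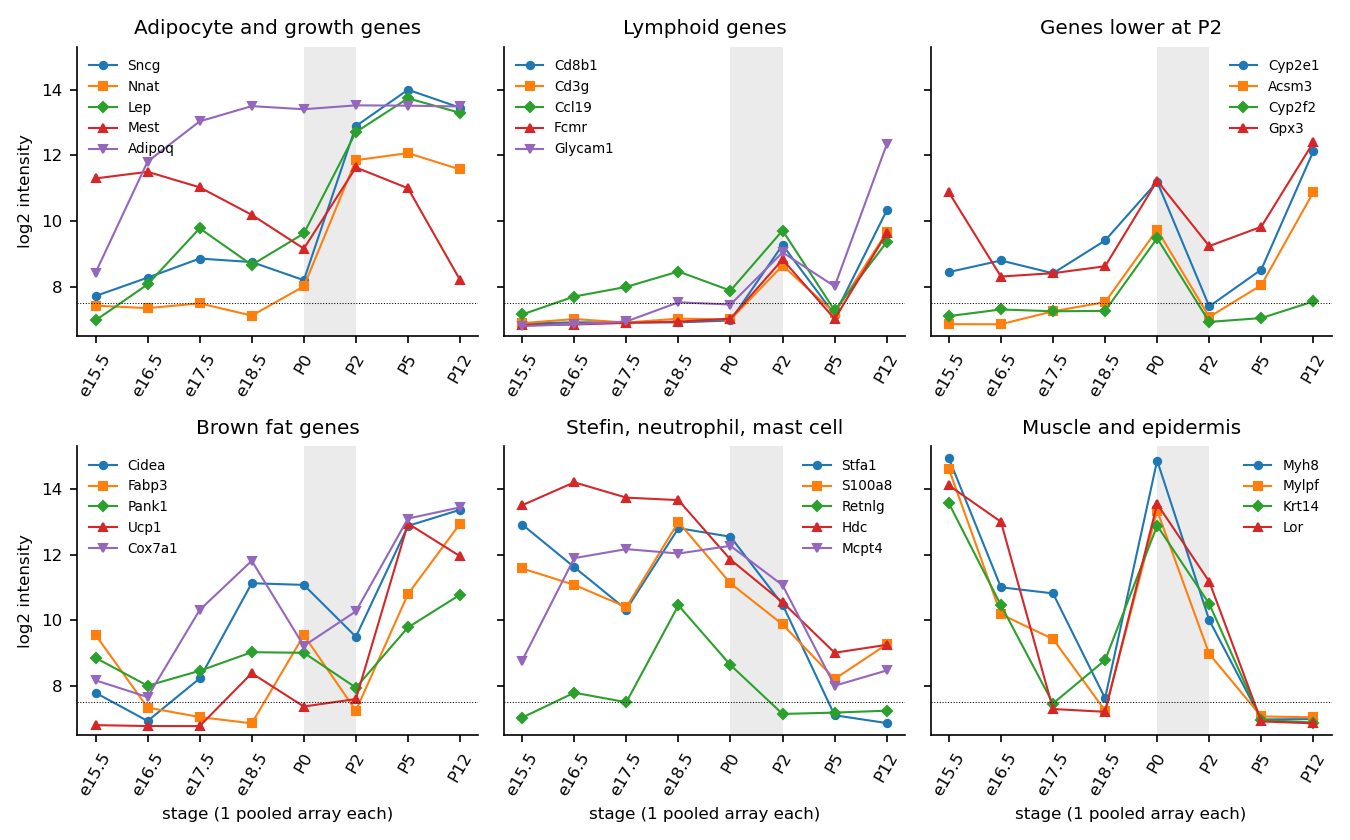
Level in log2 intensity (y axis) of named genes at each of the 8 stages (x axis, 1 pooled array each), with the P0 to P2 step shaded and the minimum of 7.5 dotted. Sncg, Nnat and Lep step up between P0 and P2 and stay high, the lymphoid genes peak at P2 and again at P12, and Cyp2e1, Acsm3, Cyp2f2 and Gpx3 are higher at P0 than at e18.5 and P2, while Cyp2e1, Acsm3 and Gpx3 are higher still at P12.

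Proteins of the acute phase, which adipocytes as well as liver can secrete, rose as 3 genes. Orm1, an orosomucoid, went from 9.26 to 11.00 (3.34-fold), with 11.91 at e18.5 and 11.72 at P5. Lrg1, a leucine-rich glycoprotein, went from 10.28 to 11.99, and Hp, which encodes haptoglobin, from 11.95 to 12.97. The 2 other Hp probes differed by 0.93 and 0.83. Lcn2, a lipocalin often grouped with these proteins, went the other way, from 9.81 to 8.77, as did Itih4, from 9.28 to 8.22. Of the 17 measured acute phase and complement genes 3 thus rose (17.6%) and 2 fell (11.8%), against 0.904% and 2.12% of all features kept. The median of the list was 0.15 log2, and it was -0.047 when only features reaching 8 were kept.

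Immune genes made up 15 of the 61 rises outside the muscle and epidermal lists. Cd8b1, a chain of the CD8 co-receptor of T cells, was at 6.88, 6.92, 6.91 and 6.91 in the embryo, 6.97 at P0, 9.27 at P2, 7.15 at P5, with 10.32 at P12. The gene was near the floor on 6 arrays and stood out on those of P2 and P12. Since its P0 level was below 7.5, the P2 level is given as at least 3.41-fold higher. Cd3g, a chain of the T cell receptor complex, repeated this, with 7.003 at P0, 8.65 at P2, 7.20 at P5, with 9.66 at P12. Cd3d, its partner chain, was at 7.02, 8.45, 7.04 and 9.25 on the same 4 arrays. Fcmr, the IgM receptor, was at 7.03, 8.83, 7.02 and 9.63, and Cd27, a co-stimulatory receptor of lymphocytes, at 7.07, 8.20, 7.40 and 9.34.

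Genes of lymphoid stroma and vessels moved with them. Ccl19 and Cxcl13 encode chemokines that attract T and B cells in lymphoid organs, and Glycam1 a mucin of high endothelial venules, the vessels through which lymphocytes enter lymph nodes. Ccl19 was at 7.88 at P0, 9.71 at P2, 7.28 at P5, with 9.36 at P12 (3.55-fold over the step). Cxcl13 was at 7.27, 8.45, 7.02 and 9.17 on these arrays, and Glycam1 at 7.46, 9.04, 8.01 and 12.33. By contrast, Ccl21a, a chemokine gene with near-identical copies that the array may not separate, was at 8.79 and 8.65. Of the 15 immune genes, 11 were lower again by 1 log2 or more at P5 and 13 were higher by 1 log2 or more at P12 than at P5. Among the 16 adipocyte, lipid and hormone genes that rose, these counts were 1 and 2. Choice for a high P2 level favours a lower level at P5, and the groups were made after the values were seen. The matching shares over all features kept are not given here, so both counts are descriptions only.

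The T and B lymphocyte list had 8 rises among 22 measured genes (36.4%, against 0.904% of all features kept), no fall, and a median of 0.78 log2. Its mean level was 7.89 at P0, 8.73 at P2, 7.69 at P5, with 9.45 at P12. These 22 were the genes kept of 44 on the array, and some, such as Cd8b1 and Cd3g, reached 7.5 at P2 but not at P0. That filter favours a high P2 level, so the share, the median and the step in the mean are descriptions only. The B cell markers Cd79a and Ms4a1 were below 7.5 on both arrays, and Cd79b, a B cell receptor chain, was at 8.28 at P2, a difference of 0.78. In the interferon response list 23 of 24 genes were above 0 (95.8%, against 51.4% of all features kept), with a median of 0.37. Gbp2, an interferon-induced guanylate-binding protein, alone passed (4.17%, against 0.904%), from 9.09 to 10.29, after 10.44 at e18.5. The list averaged 9.71 at e18.5, 8.995 at P0 and 9.46 at P2, so P2 stayed below e18.5. Cd74, the invariant chain of MHC class II, went from 8.07 to 9.24, and its second probe rose by 1.31. Of 34 macrophage genes only 6 were above 0 (17.6%) and the median was -0.33. Cd52, which lymphocytes also express, was the single rise (2.94%). A pool with more lymphoid tissue and one with more of these transcripts per cell cannot be told apart in bulk RNA, here or for any other cell type below. The part of lymphoid tissue in these rises was not tested.

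Cell division genes were higher at P2 as a group, most by less than 1 log2. Prc1, a protein that bundles spindle microtubules as cells divide, was at 11.72, 11.87, 11.48 and 10.61 on the embryonic arrays, 9.21 at P0, 10.64 at P2, 9.76 at P5, with 9.05 at P12. It thus declined to P0, returned to its e18.5 level at P2 and declined again. Prc1 was the only one of 25 mitosis genes to pass 1 log2 (4.0%, against 0.904% of all features kept). All 25 were above 0, against 51.4% of all features kept, and the median was 0.56 log2. Next came Top2a, the topoisomerase of dividing cells, at 8.41 and 9.35, and Cdc20, an activator of the anaphase-promoting complex, at 8.83 and 9.63. The list averaged 9.07 at e18.5, 8.29 at P0, 8.89 at P2 and 8.35 at P5, so P0 lay below both P2 and e18.5. In the DNA replication list 26 of 31 were above 0 (83.9%), with a median of 0.23 and no call.

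Of 21 promoters found for the mitosis list, 17 held TTTGAA (81.0%), as the Prc1 promoter shown above does, against 11.8% of the promoters of all genes kept. CCAAT was found in 16 of the 21 (76.2%), against 39.6%. These shares describe promoters of known cell cycle genes and say nothing of the step itself. Other called genes that dividing cells use were Lmnb1, a nuclear lamin, from 8.86 to 9.90, and the histone genes H2ac12, from 10.30 to 11.36, and H2ac7, from 10.76 to 11.77, whose near-identical copies make their assignment uncertain. Nap1l1, a histone chaperone, went from 9.84 to 11.10, and Nup210, a nuclear pore protein, from 7.84 to 8.96. Tuba1a, an α-tubulin, went from 10.12 to 12.21 (4.26-fold).

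The largest fall outside the muscle and epidermal lists was that of Cyp2e1, 1 of 6 falls in enzymes of detoxification and peroxide removal. Cyp2e1, a cytochrome P450 that oxidizes small molecules such as ethanol and acetone, was at 8.45, 8.80, 8.41 and 9.41 on the embryonic arrays, 11.20 at P0, 7.40 at P2, 8.52 at P5, with 12.13 at P12. P0 and P12 were high and P2 was the lowest array of the 8, and the P0 level was at least 13.0-fold above that at P2. Cyp2f2, another P450, was at 9.48 at P0, 6.93 at P2, and between 7.05 and 7.55 on the other 6 arrays. Gpx3, the secreted glutathione peroxidase, was at 10.87 at e15.5, between 8.31 and 8.62 on the other embryonic arrays, 11.23 at P0, 9.24 at P2, 9.83 at P5, with 12.40 at P12. Gpx3 was thus also high at e15.5, the other array on which skeletal muscle genes were high.

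Of 28 detoxification genes 4 fell (14.3%, against 2.12% of all features kept), none rose, and the median was -0.26 log2. The other fall in the list was Gsta3, a glutathione S-transferase, from 8.90 to 7.71. Gstt2, a transferase of another class, went from 9.13 to 7.77, and Akr1c19, an aldo-keto reductase, from 8.74 to 7.69.

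Breakdown of fatty acids and amino acids was the next group of falls, with 9 genes that include brown fat genes. Acsm3, a mitochondrial acyl-CoA synthetase for medium-chain fatty acids, was at 6.86, 6.86, 7.25 and 7.53 before birth, 9.74 at P0, 7.08 at P2, 8.05 at P5, with 10.88 at P12. Like Cyp2e1 it was high on the P0 and P12 arrays, with the P0 level at least 4.72-fold above that at P2. Acot1, an acyl-CoA thioesterase, went from 11.60 to 10.52 and on to 8.32 at P5. Slc27a1, a fatty acid transport protein, went from 10.98 to 9.92. Bcat2, the mitochondrial aminotransferase that starts the breakdown of branched-chain amino acids, went from 9.49 to 8.20. Hsd17b10, which acts later in isoleucine breakdown, went from 12.14 to 10.93, and Gnmt, a glycine methyltransferase, from 8.09 to 6.92. Of 14 genes for branched-chain amino acid breakdown 2 fell (14.3%, against 2.12% of all features kept), none rose, and the median was -0.32. Among 23 fatty acid oxidation genes Acot1 alone passed (4.35%, against 2.12%), with a median of -0.18. Among 54 respiratory chain genes none passed, with a median of -0.13.

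The brown fat genes that fell at P2 were higher again at P5. Cidea, a lipid droplet protein abundant in brown fat, was at 7.80, 6.94, 8.23 and 11.13 in the embryo, 11.08 at P0, 9.50 at P2, 12.88 at P5, with 13.37 at P12. P2 was the low point of the 5 arrays from e18.5 on. Fabp3, a fatty acid-binding protein of heart, skeletal muscle and brown fat, was at 9.56, 7.35, 7.06 and 6.87 in the embryo, 9.55 at P0, 7.25 at P2, 10.80 at P5, with 12.95 at P12. Up to P2 it was high at e15.5 and P0, the arrays on which the muscle list was high as well. Pank1, a kinase of coenzyme A synthesis, was at 9.01, 7.95, 9.79 and 10.78 from P0 to P12. Cox7a1, a respiratory chain subunit of muscle and brown fat, went the other way, from 9.22 to 10.28, below its e18.5 level of 11.82. Ucp1, the uncoupling protein of brown fat, was at 7.38 at P0 and 7.61 at P2, and at 12.95 at P5. The brown marker Zic1 was below 7.5 on both arrays. Of 13 brown fat genes 3 fell (23.1%) and 1 rose (7.69%), against 2.12% and 0.904% of all features kept, with a median of -0.095.

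Genes known to respond to fasting, sugar or metals included Depp1, a target of FOXO factors, which went from 10.93 to 9.77. Arrdc4, an arrestin-like gene induced by glucose through MondoA in cultured cells, went from 10.42 to 9.10. Mt1, a metallothionein, went from 12.70 to 11.66, below its e18.5 level of 14.63.

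Secreted proteins gave 8 falls, 7 of which were also lower by 1 log2 or more at P5 than at e18.5. Agt, the precursor of angiotensin, went from 9.85 to 8.67 and to 7.91 at P5. Apoc3 and Apoc1 encode apolipoproteins that slow the clearance of triglyceride-rich particles. Apoc3 went from 9.59 to 8.22 and 7.28, and Apoc1 from 13.15 to 12.11 and 11.90. Itih4, an inter-α-trypsin inhibitor chain, went from 9.28 to 8.22 and 7.14. Serpina12, the adipokine vaspin, was at 9.20 at P0 and did not exceed 7.71 on any other array. The major urinary protein genes Mup2 and Mup6, pheromone carriers of a family of near-identical genes, went from 9.23 to 7.27 and from 8.89 to 7.18. Their probes may not separate the family, and both were high again at P12, at 10.70 and 10.26.

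Genes of neutrophils and stefins gave 6 further falls and mast cell genes 3, of which 3 and 2 were lower again by 1 log2 or more at P5. For these 2 counts too, the share over all features kept is not given. Stfa1, a stefin protease inhibitor, was at 12.92, 11.62, 10.33 and 12.81 in the embryo, 12.55 at P0, 10.48 at P2, 7.11 at P5, with 6.87 at P12. P2 lay between a high P0 and a P5 level near the floor. The related Stfa2, Csta3 and Cstdc4 fell by 1.08, 1.22 and 1.48 log2, and their sequences are close enough that the genes may not be told apart. Retnlg, a resistin-like gene of neutrophils, went from 8.64 to 7.15 and was at 7.19 at P5, and S100a8, a calgranulin subunit, from 11.13 to 9.88, after 13.00 at e18.5. Of 14 neutrophil genes 5 fell (35.7%, against 2.12% of all features kept) and 1 rose (Hp, which adipocytes also express; 7.14%, against 0.904%), with a median of -0.76 log2, and Ngp was below 7.5 on both arrays. Stfa1 and its relatives are expressed in skin as well, and the epidermal list fell over the same step, whose part in these falls was not tested.

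Hdc, the enzyme that makes histamine, was at 13.51, 14.20, 13.74 and 13.66 in the embryo, 11.85 at P0, 10.55 at P2, 9.01 at P5, with 9.26 at P12. Mcpt4, a mast cell chymase, went from 12.27 to 11.07 and 8.01 from P0 to P5, and Tpsab1, a mast cell tryptase, from 8.61 to 7.52, with 7.94 at P5. The defining markers Cpa3 (12.31 and 11.34), Cma1 (11.87 and 10.97) and Tpsb2 (10.06 and 9.22) were lower by less than 1 log2. All 9 measured mast cell genes were below 0, as were 3370 of all 6967 features kept. Of the 9, 3 fell (33.3%, against 2.12% of all features kept), and the median was -0.90 log2.

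The skeletal muscle and epidermal genes gave 81 of the 148 falls. Myh8, the perinatal myosin heavy chain, was at 14.93, 11.01, 10.82 and 7.63 in the embryo, 14.87 at P0, 10.01 at P2, 6.98 at P5, with 6.99 at P12. It was at the top of the scale at e15.5 and P0 and low at e18.5 and from P5 on, and the second Myh8 probe fell by 4.32. Mylpf, a fast myosin light chain, went from 13.34 to 8.98, Atp2a1, the calcium pump of fast fibres, from 12.21 to 8.03, and Acta1, skeletal α-actin, from 13.96 to 10.27. Of 69 muscle genes 43 fell (62.3%, against 2.12% of all features kept) and 1 rose (Cox7a1), with a median of -1.34. On average they stood at 9.52 on the P0 array and 7.90 on the P2 array, after 10.66 at e15.5 and 7.63 at e18.5.

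The epidermis list covers keratins, cornified envelope and hair follicle genes. In it 38 of 67 fell (56.7%, against 2.12% of all features kept) and 1 rose, with a median of -1.15. Krt14, a keratin of basal epidermal cells, went from 12.89 to 10.50, Krt10, a keratin of the upper layers, from 14.05 to 11.79, and Lor, which encodes loricrin of the cornified envelope, from 13.55 to 11.18. Lce1c, a late cornified envelope gene with near-identical relatives, went from 12.16 to 8.90, the largest fall of the list. Its mean level was 7.30 at e18.5, 9.05 at P0 and 7.79 at P2. Of the muscle genes 59 of 69, and of the epidermal genes 61 of 67, were higher at P0 than at e18.5, P2 and P5. At P2, 37 of the 69 and 34 of the 67 were below 7.5, so these were kept through P0 alone. That choice favours a high P0 level, so these counts and the shares of both lists that fell are descriptions only. Levels at P2 were still above those at e18.5 for 53 muscle and 57 epidermal genes. Over each whole list, the median of P2 minus e18.5 was 0.12 and 0.21 log2.

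**Figure D3:**
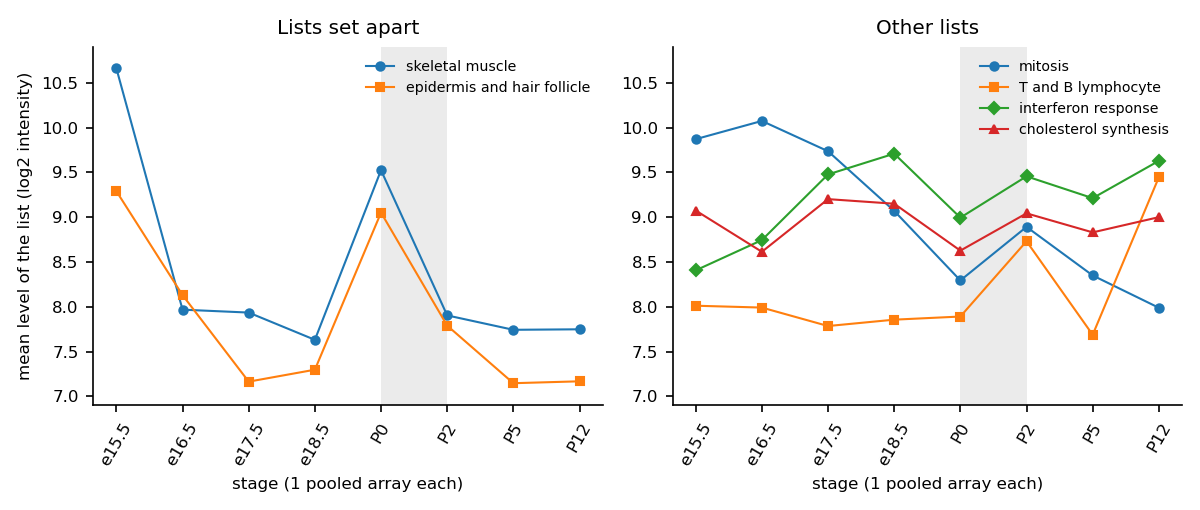
Mean level of gene lists in log2 intensity (y axis) at each stage (x axis, 1 pooled array each), with the step shaded. The muscle and epidermal lists peak at e15.5 and P0, the mitosis and cholesterol lists are lower at P0 than at e18.5 and P2, and the lymphocyte list is higher at P2 and P12.

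Some falls outside these lists had a course over the stages that most genes of the 2 lists shared. A level at e15.5 at least 1 log2 above each of e17.5, e18.5, P5 and P12 was found for 122 of the 6831 features outside the lists (1.79%), for 20 of the 67 falls (29.9%) and for 3 of the 61 rises. Among these falls were Trim72 (from 9.04 to 7.05), a membrane repair protein of muscle, Myom1 (from 9.14 to 7.67), a protein of the sarcomere M band, and Srpk3 (by 1.27 log2, from 8.77), a muscle protein kinase. Atp1b4, a muscle protein related to sodium pump subunits, fell from 9.41 to 7.04. The pattern uses arrays that the difference does not, and takes any gene high early in the series. It was met by 52 of the 69 muscle genes and 43 of the 67 epidermal genes. Lce1c, the largest epidermal fall, missed it, at 7.04 at e15.5 and 12.16 at P0. With the features that met it set apart too, 58 rises and 47 falls were left, and these may still hold genes with a course like that of Lce1c. The part of muscle and skin RNA at P0 in the other falls, or in the rises, was not tested.

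The flanking arrays, e18.5 and P5, are pools that the choice of members did not use. Of the 61 rises outside the lists, 18 (29.5%) were also higher by 1 log2 or more at P5 than at e18.5, 6 (9.84%) were lower and 37 were neither, against 2.68% higher and 3.89% lower over the 6831 features. Of the 67 falls, 26 (38.8%) were also lower, 4 (5.97%) were higher and 37 were neither. By function, 10 of 16 adipocyte, lipid and hormone genes were also higher across the flanking arrays and none was lower. Of the 15 immune genes 1 was higher and 2 were lower, and all 6 neutrophil and stefin genes and all 3 mast cell genes were lower. Fabp3, Cidea, Gpx3 and Gstt2 were the 4 falls that were higher at P5 than at e18.5. Cyp2e1, the largest fall, was at 9.41 at e18.5 and 8.52 at P5, and Cyp2f2 at 7.27 and 7.05, so neither moved by 1 log2 between the arrays around the step.

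**Figure D4:**
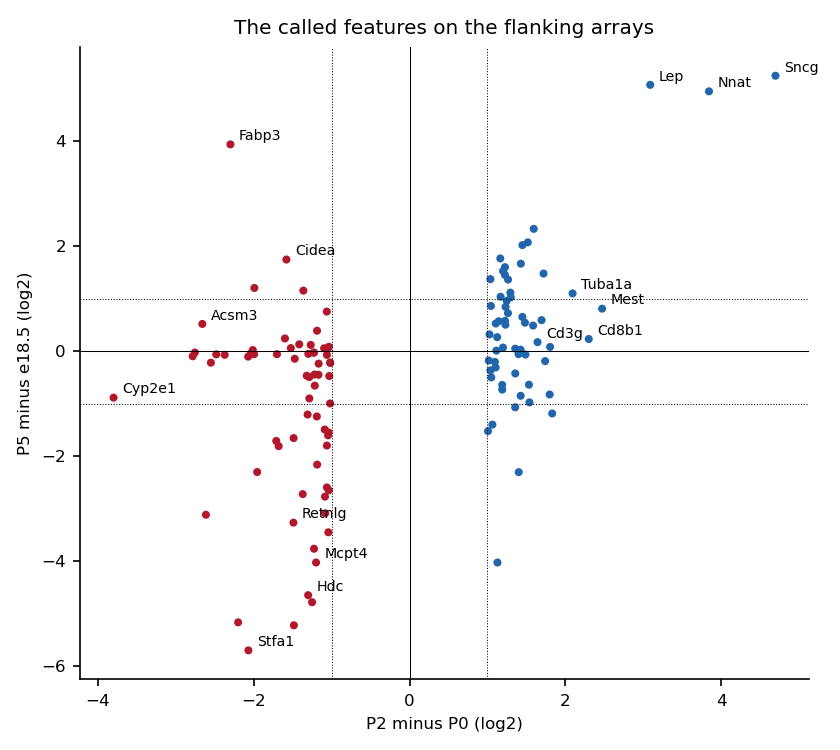
Difference between P2 and P0 (x axis, log2) and between P5 and e18.5 (y axis, log2) for each of the 61 rises (blue) and 67 falls (red) outside the muscle and epidermal lists, with dotted lines at 1 log2. Sncg, Nnat and Lep are high on both axes, the lymphoid genes Cd8b1 and Cd3g lie near 0 on the y axis, Stfa1, Hdc and Mcpt4 are low on both, and Fabp3 and Cidea lie at the upper left.

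Single genes of other function rose too. Slc4a1, the anion exchanger of red cells, was at 11.25, 11.20, 9.74 and 9.30 in the embryo, 8.15 at P0, 9.95 at P2, 8.47 at P5, with 8.03 at P12. Alas2, the heme synthesis enzyme of red cell precursors, was at 9.56 and 10.45, a difference of 0.88, and Hba-a1, an α-globin gene, at 14.73 and 15.05. Sptb, the β-spectrin of red cells and muscle, went from 8.22 to 7.13. Of 11 erythroid genes 1 thus rose and 1 fell (9.09% each, against 0.904% and 2.12% of all features kept), with a median of 0.32. Glb1l2, a β-galactosidase-like gene, went from 9.55 to 11.15, and Slc6a13, a GABA transporter, from 7.44 to 8.96 and on to 9.47 at P5. Ltc4s, the leukotriene C4 synthase, went from 9.21 to 10.35. Slc40a1, the iron exporter ferroportin, fell from 12.23 to 11.04, back to the 11.03 of P5.

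Among other cell types near fat, of 39 endothelial genes none passed 1 log2, and the median was -0.015, with Pecam1 at 10.42 and 10.68. Of 26 mesenchymal progenitor genes Osr2, a transcription factor of connective tissue, fell (3.85%, against 2.12% of all features kept), from 10.10 to 9.07. None rose, and the median was 0.0025. Of 23 pericyte and smooth muscle genes 16 were above 0 (69.6%, against 51.4% of all features kept), with a median of 0.28. Sncg, which that list shares, was its only rise (4.35%, against 0.904% of all features kept). Des, the intermediate filament desmin of muscle, was its only fall (4.35%, against 2.12%), from 9.90 to 8.21. Of 13 Schwann cell and nerve genes 12 were above 0 (92.3%), with a median of 0.37 and again Sncg as the only call (7.69%). All 6 measured mammary and glandular genes were above 0, with a median of 0.43 and Glycam1 as the only call (16.7%). The cartilage and bone markers Col2a1, Acan and Ibsp and the milk protein genes Csn2 and Wap were below 7.5 on both arrays, while Csn3, a casein gene, was at 8.56 and 9.18.

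**Figure D5:**
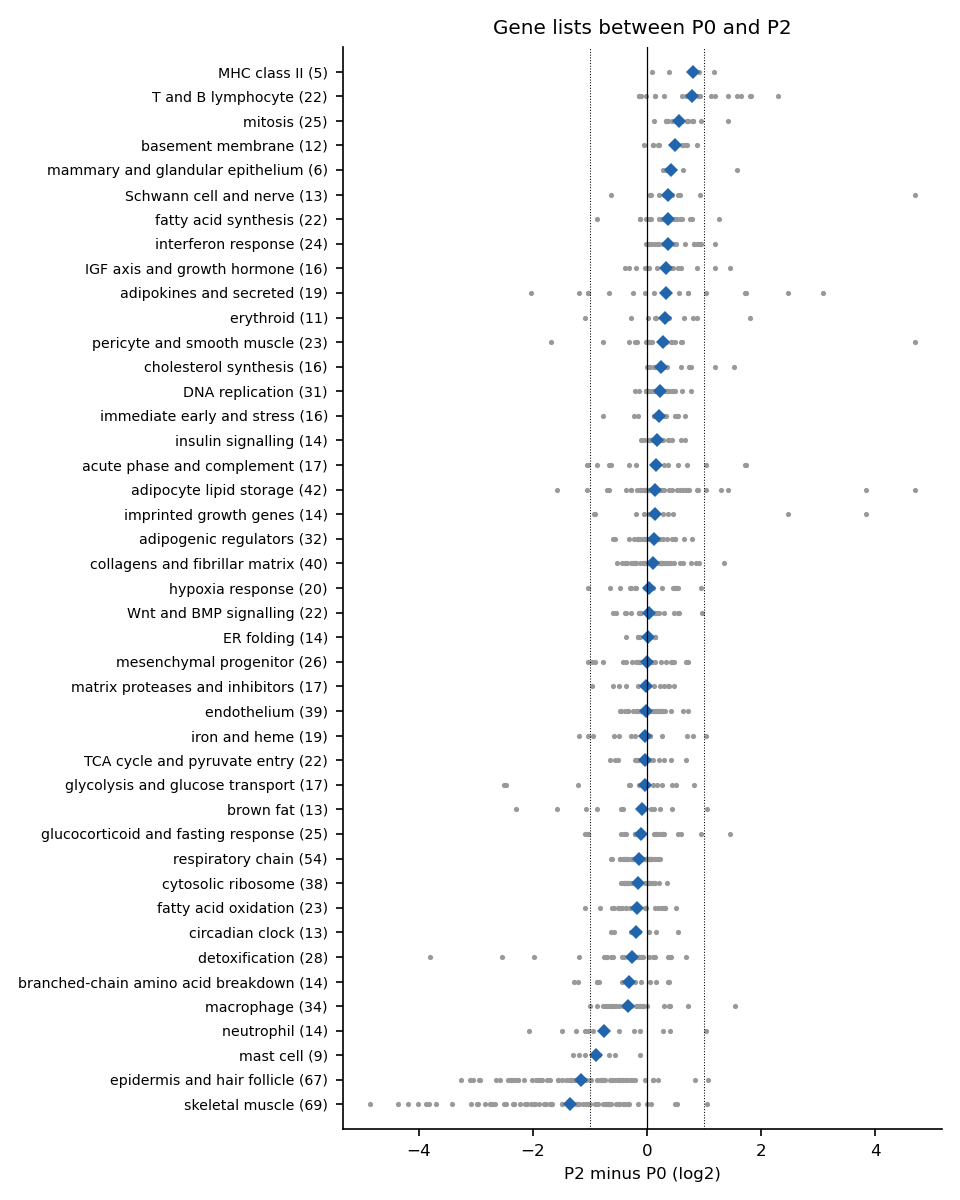
Difference between P2 and P0 in log2 (x axis) for the members of each gene list with at least 5 measured genes (y axis, number of genes in parentheses); grey points are genes, blue diamonds list medians, the solid line the median of all features kept and the dotted lines 1 log2. The muscle and epidermal lists lie lowest, followed by mast cell and neutrophil genes, and MHC class II, lymphocyte and mitosis genes lie highest.

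Probes of the same gene give the scatter of a difference within these 2 arrays. Over 1397 genes with 2 or more probes, the SD of a probe's difference, from the 2 brightest probes of each gene, was 0.176 log2, which holds no spread between animals or pools. Of 42 called genes with another measured probe, every other probe moved the same way for 41, and every other probe also passed 1 log2 for 24. The exception was Pdlim5, a Z-disc protein of muscle, whose probe fell by 1.03 while others differed by -1.20 and 0.29. Close to the threshold, 11 rises and 23 falls were within 0.1 log2 above it, and 25 and 26 features within 0.1 below it.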

How the data were processed

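The authors deposited processed log2 intensities for 25697 probes, with 1 column for each of 8 samples. Per the labels' protocols, RNA was labelled with biotin and images were read in BeadStudio. Values ran from 6.66 to 15.10, from which the log base was taken. Background treatment and normalization are not stated in the labels read here. Sorted values agreed to within 0.005 between columns, so a change in total signal is hidden, and differences of dim probes are compressed. Rises of probes already near 15.10 are limited as well. A second deposited table was not used, since its 16 per-sample columns match no label.

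Probes were named from the platform annotation, under which 23978 had 1 symbol, 0 had several and 1719 are unnamed here. A gene was represented by its brightest probe on average over the 8 arrays. Features at 7.5 or more on the P0 or P2 array were kept, made up of 6483 named genes and 484 unnamed probes. Differences were counted at 1 log2, with no p-value, since each stage was 1 array, and that number limits the precision. Folds against a level under 7.5 are bounds against 7.5. No build is named for the values; promoter coordinates are those of RefSeq in GRCm38.p6.

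Members and the 48 gene lists were chosen with earlier results of these data known, and lists share members. Function groups among called genes were made after their values were seen. Genes named by rule were the 20 largest rises and falls outside the muscle and epidermal lists, up to 4 rises and 4 falls of 1 log2 per list, the 6 largest muscle and epidermal falls with up to 3 rises, and a fixed adipose set. Further genes named are examples picked with their values in view. Python 3.11.15, pandas 2.3.3, NumPy 2.4.6, statsmodels 0.14.6 and matplotlib 3.10.9 were used.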

Additional observations from a re-analysis of the deposited data

How the results depend on the processing

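No paired analysis was possible because each stage had 1 sample. Most counts moved by less than 1.5 times under other minimums, a loess correction and another choice of probe. Requiring 7.5 on both arrays left 81 falls in all and 42 outside the muscle and epidermal lists, by construction of fewer features. At 1.5 log2 there were 18 rises and 80 falls in all, and 18 and 23 outside the lists. With the e18.5 array in place of P0, chosen after seeing the data, 120 features fell outside the lists and 63 rose, and the cause was not tested. Counting any difference of the same sign between P5 and e18.5, 40 of the 61 rises and 52 of the 67 falls had that sign. Among features at 8 or more, 5 list medians moved: skeletal muscle to -1.81, epidermis to -1.55, lymphocyte to 1.01, neutrophil to -0.96 and acute phase to -0.047. Of 106 named genes, 89 were called, and none of these calls was lost under the loess correction or the other probe. Dim signal limits some falls: 25 of the 67 outside the lists ended below 7.5.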
